A study of Mus musculus with 6 samples.

Results

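The genes described here make up the class I presentation machinery of the major histocompatibility complex (MHC): the heavy chains H2-K1 and H2-D1, the light chain B2m, the peptide transporter Tap1 and Tap2, the loading factor Tapbp, the immunoproteasome subunits Psmb8, Psmb9 and Psmb10, and the transactivator Nlrc5. They were chosen by symbol, and the probe sets annotated to any of the 10 symbols were taken from the table, 12 of 41345 probe sets. For 9 of the 10 genes a probe set carried that symbol alone, and these entered the fit over 16797 genes. H2-D1 shared its only probe set with H2-Q2 and is given by that joint probe set, with no test. RNA came from cultures of 3 mouse tumour lines grown in medium with fetal bovine serum: LLC, a Lewis lung carcinoma, AE17, a malignant mesothelioma, and MC38, a colon adenocarcinoma. Each line gave 1 array labelled sh Spp1, with the genotype label Spp1 depletion, and 1 labelled sh Ctrl, with the genotype label wild type. Spp1 encodes osteopontin, a secreted glycoprotein. The labels do not say whether a knockdown culture was a clone or a pool, nor whether the control carried a hairpin.

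Class I molecules show fragments of a cell's own proteins to cytotoxic T cells. The proteasome cuts proteins into peptides, TAP carries the peptides into the endoplasmic reticulum, and tapasin, encoded by Tapbp, helps to load them onto a heavy chain paired with beta-2-microglobulin, the product of B2m. In cells exposed to interferon, 3 immunoproteasome subunits replace the standard catalytic subunits, and most genes of the pathway are induced. Tumour cells with low class I expression are poor targets for cytotoxic T cells.

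Because 0 probe sets with a symbol named Spp1, the depletion itself was not checked here, and every direction rests on the labels. The AE17 arrays stood apart from each other: over all probe sets they correlated at r = 0.939, below the 0.942 to 0.954 of each AE17 array with the arrays of the other lines, whereas the arrays of LLC correlated at 0.979 and those of MC38 at 0.982. Probe sets are not independent replicates. Markers of other cell types also differed within AE17. The summed intensity of 7 fibroblast markers was 6880 on the AE17 sh Spp1 array and 675 on the sh Ctrl array, and that of 7 epithelial markers 284 and 2383. Few genes carried these sums. Col1a1, Pdgfrb and Col3a1 had AE17 ratios of 5.09, 3.22 and 2.29, while Dcn had 5.81 on the sh Spp1 array against 5.71 on the sh Ctrl array, Col1a2 5.89 against 5.75 and Thy1 5.39 against 5.88. The epithelial sum followed Krt8, at 6.47 against 11.08, whereas Cdh1 had 5.88 against 5.73 and Krt19 5.51 against 5.02. Across lines the fibroblast sum ran from 955 to 6880 on sh Spp1 arrays and from 675 to 4485 on sh Ctrl arrays, and the epithelial sum from 284 to 1256 and from 302 to 2383. Of 12 leukocyte markers 11 had a probe set of their own, with sums of 336 to 674 on sh Spp1 arrays and 319 to 567 on sh Ctrl arrays. Ptprc, Adgre1 and Cd52 lay under the brightness floor of 4.49 log2 units on every array. In AE17 the leukocyte sum was 674 on the sh Spp1 array and 567 on the sh Ctrl array, but single markers differed in opposite directions. The AE17 log2 ratio was -2.38 for Lyz2 and 1.40 for Cd68. Whether the fibroblast, epithelial and leukocyte marker differences bear on the AE17 values below was not tested, and in bulk RNA fewer cells of a type and less RNA per cell cannot be told apart. Of the markers of the labelled origins, Epcam lay under the floor on every array, but in LLC Krt18 had 9.62 on the sh Spp1 array against 8.75 on the sh Ctrl array and Krt8 8.31 against 8.88. The summed intensity of 6 lung markers was 170 to 178 on sh Spp1 arrays and 155 to 209 on sh Ctrl arrays, with Scgb1a1 under the floor throughout, and that of 6 intestinal markers 192 to 230 and 179 to 295. The intestinal sum was 194 and 191 on the sh Spp1 and sh Ctrl arrays of MC38 and 192 and 295 on those of AE17. In AE17 the intestinal marker Krt20 had 3.79, under the floor, on the sh Spp1 array against 6.83 on the sh Ctrl array. The sum of 7 mesothelial markers was 1388 and 1340 on the sh Spp1 and sh Ctrl arrays of MC38 and 293 and 311 on those of AE17. The marker Msln had log2 intensities of 9.96 and 9.87 on the sh Spp1 and sh Ctrl arrays of MC38 but 5.34 and 5.13 in AE17, whereas Wt1 had 5.65 and 5.71 in MC38 and 5.64 and 5.83 in AE17. All values below are log2 intensities after quantile normalization unless stated, and a ratio is sh Spp1 over sh Ctrl, 1 array over 1 array.

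The starts of 8 of the 10 genes had 9 promoter windows in the RefSeq table of build GRCm38.p6, each running from 250 bases before to 50 bases after a start, and 4 are shown: H2-K1, H2-D1 and B2m because they share a pair of motifs described below, and Tap1 because it lies back to back with Psmb9. Capitals mark matches, on either strand, to GAAANNGAAA (the interferon-stimulated response element), TTCNNNGAA (the gamma-activated site), GGGNNTTCC or GGGNNTTTCC (sites of the NF-kB type), TGACG (the core of the X2 box) and CCAAT (the core of the Y box). The H2-K1 window lies at chr17:34000298-34000597 on the minus strand, that of H2-D1 at chr17:35262844-35263143, that of B2m at chr2:122147437-122147736 and that of Tap1 at chr17:34187306-34187605, the last 3 on the plus strand.
H2-K1: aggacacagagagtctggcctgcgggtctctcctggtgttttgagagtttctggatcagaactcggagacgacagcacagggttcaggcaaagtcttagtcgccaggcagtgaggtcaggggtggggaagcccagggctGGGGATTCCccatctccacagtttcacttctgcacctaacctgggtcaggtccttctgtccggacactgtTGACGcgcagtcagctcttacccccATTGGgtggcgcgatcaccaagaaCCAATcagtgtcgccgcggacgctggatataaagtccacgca
H2-D1: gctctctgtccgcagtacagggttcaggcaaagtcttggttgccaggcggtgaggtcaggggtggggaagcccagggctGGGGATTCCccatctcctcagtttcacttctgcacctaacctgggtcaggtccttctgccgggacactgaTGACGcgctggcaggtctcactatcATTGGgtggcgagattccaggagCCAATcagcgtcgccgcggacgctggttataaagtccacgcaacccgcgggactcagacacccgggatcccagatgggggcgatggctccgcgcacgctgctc
B2m: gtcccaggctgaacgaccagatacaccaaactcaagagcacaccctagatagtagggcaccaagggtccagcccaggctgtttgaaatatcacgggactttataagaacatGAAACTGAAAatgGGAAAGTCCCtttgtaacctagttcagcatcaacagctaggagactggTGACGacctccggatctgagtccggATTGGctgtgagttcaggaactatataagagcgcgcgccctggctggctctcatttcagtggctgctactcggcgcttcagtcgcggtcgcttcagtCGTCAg
Tap1: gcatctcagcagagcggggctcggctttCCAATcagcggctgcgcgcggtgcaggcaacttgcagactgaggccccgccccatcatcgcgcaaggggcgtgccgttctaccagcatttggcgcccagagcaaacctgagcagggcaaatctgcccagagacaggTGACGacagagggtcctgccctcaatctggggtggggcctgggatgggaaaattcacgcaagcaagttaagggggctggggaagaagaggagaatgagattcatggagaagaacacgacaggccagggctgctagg

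In H2-K1, H2-D1 and B2m a TGACG was followed after exactly 20 bases by ATTGG, the Y box core read on the other strand, the order of the X2 and Y boxes that Nlrc5 and its partners are known to occupy at class I promoters. This spacing was searched for after the windows had been read, and 31 of 32851 windows in the table, 0.0944%, hold it. The B2m window also held GAAACTGAAA at bases 112 to 121 and GGAAAGTCCC at bases 125 to 134, and both heavy chain windows held GGGGATTCC. No matches overlapped in the windows shown. Over all windows the shares with a match were 3.44% for GAAANNGAAA, 8.3% for TTCNNNGAA, 5.82% for GGGNNTTCC, 1.63% for GGGNNTTTCC, 20.8% for TGACG and 37.4% for CCAAT. The Tap1 window held TGACG and CCAAT but none of the other motifs. Tap1 and Psmb9 are transcribed away from each other from starts 226 bases apart, so that their windows share 275 of 300 bases, and along chromosome 17 the order is Psmb9, Tap1, Psmb8 and Tap2. These matches describe letters in a window and are not evidence of binding. Only the exact letters given were searched for, so a window without a match may still hold a variant of that site.

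H2-K1 (Entrez gene 14972), the heavy chain that presents peptide, had 9.24 on the sh Spp1 array and 8.44 on the sh Ctrl array of LLC, 11.16 against 9.81 in AE17, and in MC38 11.24 against 11.79. It was thus higher with sh Spp1 in LLC and AE17, by 1.74-fold and 2.55-fold, and lower in MC38 by 1.46-fold, where median centring gave a log2 ratio of 0.04 instead. The mean log2 ratio over the lines was 0.53 ± 0.98 (SD, n = 3 lines), with a 95% interval of -0.52 to 1.59 and an adjusted p of 0.736 in limma. In LLC and AE17, 3.30% and 6.18% of genes had higher ratios, and in MC38 6.02% had lower ones.

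B2m (Entrez gene 12010), the light chain that every class I heavy chain needs, differed little within lines after quantile normalization. It had 12.90 on the sh Spp1 array against 12.93 on the sh Ctrl array of LLC, 13.33 against 13.15 in AE17, and in MC38 13.23 against 13.36. Its range over the 6 arrays was 0.47 log2 units, the narrowest of the 9 tested genes, against 3.35 for H2-K1, and the mean ratio was 0.00 ± 0.16 with an interval of -0.45 to 0.46. Other scalings gave larger ratios, 0.29 in LLC, 0.28 for AE17 and 0.09 for MC38 as deposited. After median centring the LLC ratio was 1.08, past 2-fold, with 0.74 for AE17 and 0.27 for MC38. Only 0.0484% of probe sets were brighter on average, and the top of the scale was 13.60, where array signals can be compressed.

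The probe set annotated to both H2-Q2 and H2-D1 was dim, with 42.5% of probe sets brighter. It had 5.31 on the sh Spp1 array against 5.75 on the sh Ctrl array of LLC, 5.94 against 6.26 in AE17, and in MC38 5.79 against 5.84, ratios of -0.45, -0.32 and -0.05. Class I heavy chains are closely related in sequence, so signal of H2-K1 and of this probe set may include that of relatives, and the level of H2-D1 alone was not measured.

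**Figure D1:**
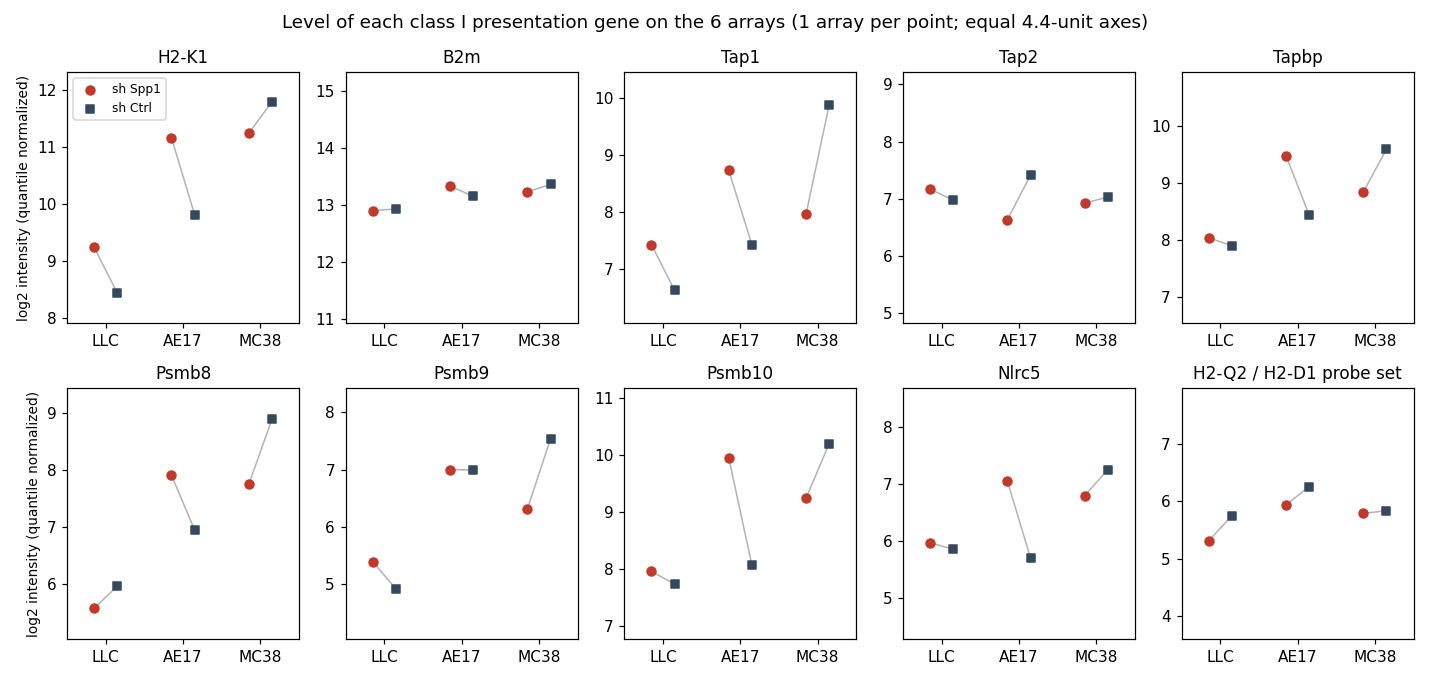
Log2 intensity (y axis) of the 9 tested genes and the joint H2-Q2 and H2-D1 probe set on each array, with the sh Spp1 array (circle) left of the sh Ctrl array (square) of its line (x axis). The circle lies above the square in AE17 and below it in MC38 for 8 genes, by 0.01 only for Psmb9 in AE17, and B2m spans 0.47 log2 units over all arrays.

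Tap1 (Entrez gene 21354), the transporter subunit encoded beside Psmb9, had 7.43 on the sh Spp1 array and 6.63 on the sh Ctrl array of LLC, 8.73 against 7.43 in AE17, and in MC38 7.96 against 9.88. It had the lowest MC38 ratio of the 9 genes, -1.93 or 3.80-fold lower, with 0.436% of genes lower still, and ratios of 0.80 in LLC and 1.3 in AE17. Each of these 3 directions also held without quantile normalization, both in the deposited intensities and after median centring. The mean over the lines, 0.06 ± 1.74 (SD, n = 3 lines), had an interval of -1.71 to 1.82.

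Tap2 (Entrez gene 21355), its partner in the transporter, did not follow. Its levels were 7.17 on the sh Spp1 array against 6.97 on the sh Ctrl array of LLC, 6.63 against 7.41 in AE17, and in MC38 6.92 against 7.03. It was the one tested gene that was lower in AE17, at -0.78, and it stayed within 0.78 log2 units over the 6 arrays. Its profile correlated with the mean of the other 8 genes at r = -0.418 over the arrays, where the other genes had 0.857 to 0.979 with the remaining 8.

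Tapbp (Entrez gene 21356), which bridges TAP and the empty heavy chain, had 8.04 on the sh Spp1 array against 7.90 on the sh Ctrl array of LLC, 9.48 against 8.44 in AE17, and in MC38 8.84 against 9.59. The ratios were 0.13, 1.05 and -0.75. A dimmer probe set of the gene gave -0.22, 0.26 and -0.02, and a further one annotated to Tapbp and Zbtb22 gave 0.63, 0.21 and 0.26. The size of the AE17 and MC38 differences thus depended on the probe set. So did the sign in LLC and, for the shared probe set, the sign in MC38.

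Psmb8 (Entrez gene 16913), which replaces the catalytic subunit Psmb5, had 5.58 on the sh Spp1 array against 5.97 on the sh Ctrl array of LLC, 7.91 against 6.95 in AE17, and in MC38 7.75 against 8.89. Psmb9 (Entrez gene 16912), which replaces Psmb6, had 5.38 against 4.91 in LLC, 7.0 against 6.99 in AE17, and in MC38 6.31 against 7.54. Psmb10 (Entrez gene 19171), which replaces Psmb7, had 7.96 against 7.74 in LLC, 9.95 against 8.07 in AE17, and in MC38 9.24 against 10.20. In MC38 all 3 subunits were lower with sh Spp1, by 2.2-fold, 2.36-fold and 1.94-fold, and 1.28%, 1.11% and 1.82% of genes were lower still. In AE17 Psmb10 was 3.69-fold higher and Psmb8 1.95-fold, while Psmb9 differed by 0.01 log2 units, so the genes on the 2 sides of the shared Tap1 and Psmb9 start region had different AE17 ratios, 1.3 for Tap1 and 0.01 for Psmb9.

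Each immunoproteasome subunit was also set against the standard subunit it replaces, as a difference between log2 ratios. For Psmb8 less Psmb5 the LLC difference was -0.18, the AE17 difference 0.71 and the MC38 difference -1.40. For Psmb9 less Psmb6 the differences were 0.71, -0.79 and -1.07, and for Psmb10 less Psmb7 they were 0.14, 2.16 and -0.78. All 3 exchanges were thus below 0 in MC38, and AE17 had both signs. Their means over the lines were -0.29 ± 1.06, -0.39 ± 0.96 and 0.51 ± 1.5 (SD, n = 3 lines), each smaller than its SD.

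**Figure D2:**
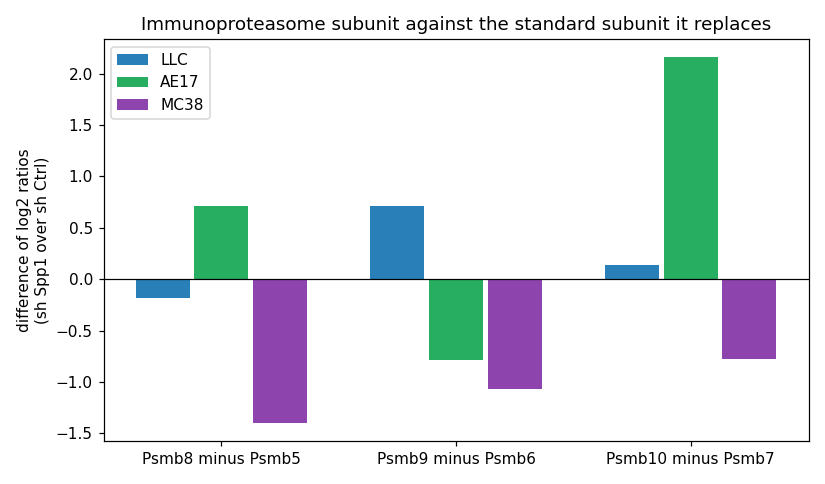
Difference between the log2 ratio (sh Spp1 over sh Ctrl) of an immunoproteasome subunit and that of the standard subunit it replaces (y axis), for 3 subunit pairs (x axis) and 3 lines (bars, 1 value each, no error). The MC38 bars lie between -1.40 and -0.78 and the AE17 bars between -0.79 and 2.16.

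Nlrc5 (Entrez gene 434341), which drives transcription of class I genes, had 5.97 on the sh Spp1 array against 5.85 on the sh Ctrl array of LLC, 7.05 against 5.70 in AE17, and in MC38 6.79 against 7.25. The ratios of 0.11, 1.35 and -0.46 ran in the order of those of Psmb10, with which it correlated at r = 0.977 over the 6 arrays. Over the 36 pairs of the 9 genes the median correlation was 0.893, with a range of -0.679 to 0.983. The arrays are 3 pairs of the same line, so these figures are descriptions of 6 points that are not independent.

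Over the 3 lines, 0 of the 9 tested genes passed an adjusted p of 0.05 in limma with the line as a block, against 0% of 16797 genes. At an unadjusted p under 0.05 there were 0 of the 9 genes and 1017 of all genes, or 6.05%. The adjusted p of the 9 genes ran from 0.736 to 0.995. Without AE17 0 of the 9 passed as well, and 1 had an unadjusted p under 0.05, beside 7.57% of all genes. The mean ratios of Tapbp, Psmb10, Nlrc5 and Tap1 without AE17 were -0.31, -0.37, -0.17 and -0.56. Each had the opposite sign to its mean over all lines of 0.14, 0.38, 0.33 and 0.06. With 1 array per line and label, whether the lines differ in their ratios was not tested.

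Within lines, genes were counted by a log2 ratio of at least 1, which is 2-fold, with no test. In AE17 5 of the 9 genes were higher by that much, H2-K1, Tap1, Tapbp, Psmb10 and Nlrc5, and 0 lower, where 9.97% of all genes were higher and 8.67% lower. These are the arrays whose fibroblast and epithelial marker sums differed most, and the part of that in these counts was not tested. In MC38 3 were lower, Tap1, Psmb8 and Psmb9, and 0 higher, where 1.66% of genes were lower and 0.872% higher. In LLC 0 were past the threshold in either direction, where 1.72% of genes were higher and 1.76% lower. The median ratio of the 9 genes was 1.05 in AE17, -0.75 in MC38 and 0.19 in LLC, beside -0.04, 0.02 and 0.03 for all genes. Of the 9 genes 8 were above 0 in AE17 and below 0 in MC38, all except Tap2, as were 19.8% of all genes, but Psmb9 in AE17 was just below 0 as deposited, B2m in MC38 was above 0 as deposited and after median centring, and H2-K1 and Tap2 in MC38 were above 0 after median centring. These scalings also move the median of all genes, and set against it 7 of the 9 lay above in LLC under each of the 3, 8 above in AE17 under each, and in MC38 9 below after quantile normalization and 8 under the other 2 scalings. In LLC the ratios of H2-K1 and Tap1 were above 0 and that of Psmb8 below 0 under every scaling, while the other 6 genes had a sign that depended on it.

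**Figure D3:**
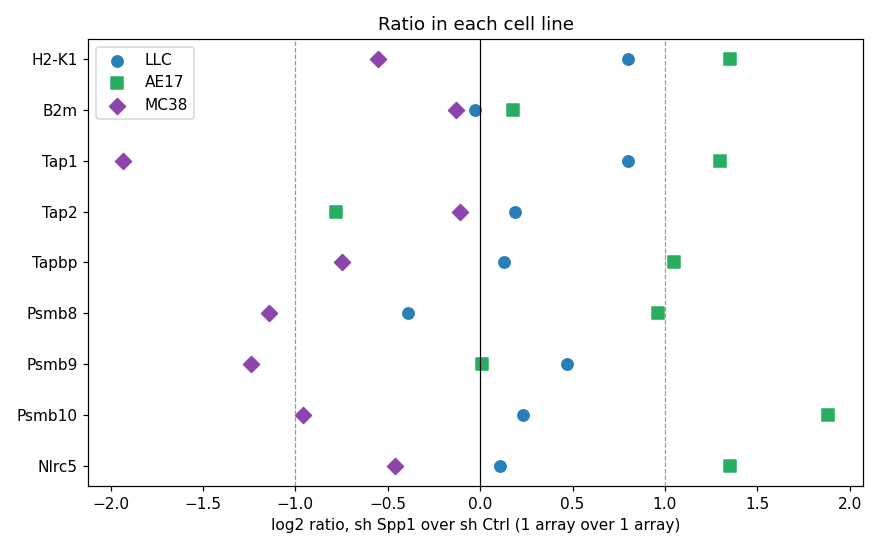
Log2 ratio of sh Spp1 over sh Ctrl (x axis) for each of the 9 tested genes (rows) in the 3 lines (symbols, 1 array over 1 array), with dashed lines at 1 log2 unit in either direction. The MC38 values lie between -1.93 and -0.11, and the AE17 values above 0 for all genes but Tap2 at -0.78.

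Among the lines, LLC had the lowest mean level of 8 of the 9 genes, all but Tap2. Both LLC arrays lay below the other 4 arrays for 7 of the 9 genes, all but Tap2 and Nlrc5, and 11.6% of all genes had that order. For Tap1 the margin was under 0.01 log2 units. The MC38 sh Ctrl array was the highest of the 6 for 8 of the 9, all but Tap2, as it was for 11.5% of genes. H2-K1 averaged 11.52 in MC38, 10.48 in AE17 and 8.84 in LLC, and Psmb8 averaged 8.32, 7.43 and 5.77 (2 arrays each, 1 of each label).

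In the fit of all lines 0 of the 9 genes passed in any contrast between lines, against 0% of genes higher and 0% lower in each. At an unadjusted p under 0.05 there were 5 of the 9 in MC38 minus LLC, 3 in AE17 minus LLC and 0 in MC38 minus AE17, beside 11.5%, 12.8% and 13.2% of all genes. The spread in that fit includes the AE17 pair. With only MC38 and LLC in the fit, H2-K1 was 2.67 ± 0.35 (SE) log2 units higher in MC38 with an adjusted p of 0.0154, Psmb8 2.55 ± 0.25 higher with 0.00655, and Psmb10 1.87 ± 0.32 higher with 0.0326. These 3 of the 9 genes were higher and 0 lower, where 3.41% of all genes were higher and 2.74% lower. Nlrc5, at 1.11 ± 0.23, and Tapbp, at 1.25 ± 0.27, had adjusted p of 0.0540 and 0.0623. The 2 arrays of a line differ in their sh label and are not replicate cultures, so the error includes the response of each line to the depletion.

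The gap between MC38 and AE17 depended on which arrays were set against each other. On the sh Spp1 arrays H2-K1 was 0.09 log2 units higher in MC38 than in AE17, and on the sh Ctrl arrays 1.99. For Psmb10 the gaps were -0.71 and 2.13, for Tap1 -0.77 and 2.45, and for Nlrc5 -0.26 and 1.56. Each pair of gaps differs by exactly the difference between the ratios of the lines, which was not tested.

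Other genes of the pathway were read from lists. Of 20 further class I heavy chains and relatives, 11 had a tested probe set of their own, and their median ratio was -0.70 in MC38, -0.18 in AE17 and 0.06 in LLC. By at least 1 log2 unit 1 was higher in LLC, H2-Q10, and 0 lower, beside 1.72% and 1.76% of all genes. In AE17 1 was higher, H2-Q4, and 1 lower, H2-Q10, beside 9.97% and 8.67% of all genes. The brightest probe set of H2-Q10 had 8.04 on the sh Spp1 array against 5.77 on the sh Ctrl array of LLC, 7.20 against 9.63 in AE17, and in MC38 9.25 against 9.02, but a dimmer one had ratios of 0.39, -0.00 and -0.23. In MC38 0 were higher and 2 lower, beside 0.872% and 1.66% of all genes. The lower ones were H2-T23, which encodes Qa-1, at 7.24 on the sh Spp1 array and 8.54 on the sh Ctrl array, and H2-T24, at 5.99 and 7.99. H2-M3, which presents formylated peptides, had ratios of 0.43, 0.77 and -0.98 in LLC, AE17 and MC38, and H2-Q4 had -0.69, 2.63 and -0.96. A dimmer probe set of H2-Q4 had -0.15, 0.55 and 0.38, so the size of its AE17 ratio and the sign of its MC38 ratio depended on the probe set. Mr1, which presents metabolites to a class of innate-like T cells, had -0.85, -0.20 and -0.63, with an adjusted p of 0.723 over the lines. The highest means over the lines were 0.33 ± 2.0 for H2-Q4 and 0.18 ± 0.30 for the lipid-presenting Cd1d1 (SD, n = 3 lines), and the lowest -0.56 for H2-T24, H2-T23 and Mr1. The signals of these relatives may also include one another's.

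The helpers of peptide supply and folding were closer to 0, with LLC, AE17 and MC38 medians of 0.20, 0.16 and -0.01 over 12 of 13 genes. Erap1, which trims peptides in the endoplasmic reticulum, had 0.71, 0.67 and -0.40, the glucosidase subunit Ganab 0.41, 0.64 and 0.02, and the tapasin relative Tapbpl 0.50, 1.17 and -0.04. The proteasome activator subunit Psme1 had -0.57, 0.27 and -0.91, its partner Psme2 -0.42, -0.34 and 0.01, and Psme3, of a nuclear activator, 0.39, -0.14 and 0.46. The chaperones Calr, Canx and Pdia3 lay between -0.48 and 0.39 in all lines. The standard proteasome core had medians of 0.08, 0.14 and -0.17 in LLC, AE17 and MC38 over 13 of 14 genes, and 0 of them were past 1 log2 unit in any line. The highest means over the lines were 0.53 ± 0.42 for Psmb3 and 0.21 ± 0.43 for Psmb2, and the lowest -0.21 ± 0.25 for Psma3 and -0.15 ± 0.07 for Psma2 (SD, n = 3 lines).

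Of 20 regulators 18 were tested, with medians of 0.09, -0.03 and -0.17. Irf1, an interferon-induced activator of class I genes, had 5.67 on the sh Spp1 array against 6.54 on the sh Ctrl array of LLC, 7.93 against 7.02 in AE17, and in MC38 8.08 against 8.98. Stat2 and Irf9, which form a complex downstream of the type I interferon receptor, had ratios of -2.08 and -1.82 in MC38, 0.17 and 0.94 in AE17, and -0.09 and 0.11 in LLC. The interferon-gamma receptor chain Ifngr1 had -0.69, -0.39 and -0.44, with an adjusted p of 0.723 over the lines. Rfx5, a partner of Nlrc5 at the X box, had 0.44, 0.21 and -0.87, but a dimmer probe set shared with another symbol had 1.22, 0.22 and 0.27. The highest means over the lines belonged to the NF-kB subunit Rela, at 0.34 ± 0.14, and the Y box factor subunit Nfyc, at 0.31 ± 0.70 (SD, n = 3 lines).

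Class II genes, a neighbouring pathway of professional antigen-presenting cells, had 7 of 11 genes tested and medians of 0.21, -0.38 and 0.00 in LLC, AE17 and MC38, with 0 past 1 log2 unit in LLC and MC38 and 1 in AE17, H2-DMa at -1.36. Of all genes 8.67% were lower and 9.97% higher by at least that unit in AE17, 1.76% and 1.72% in LLC, and 1.66% and 0.872% in MC38. H2-DMa and H2-Ab1 had the lowest means, -0.68 and -0.19, and H2-Eb1 and H2-Oa the highest, 0.32 and 0.20. Interferon-stimulated genes outside presentation had 17 of 20 tested, with medians of -0.10, 1.65 and -2.43, and 13 were higher by at least 1 log2 unit in AE17 and 15 lower in MC38, where 9.97% of all genes were higher in AE17 and 1.66% lower in MC38. Oas2 and Usp18 had the lowest MC38 ratios named here, -4.49 and -4.00, with 0.85 and 1.89 in AE17 and -0.69 and -0.91 in LLC. Mx1 and Ifit1 had the highest means, with 2.05 and 2.63 in AE17 and -0.75 and -1.68 in MC38. Mx1 lay under the floor on 4 arrays, among them AE17 sh Ctrl at 3.98 and MC38 sh Spp1 at 4.48, so the size of its ratios is uncertain. Of the genes in the 5 lists of class I relatives, helpers, standard proteasome, regulators and class II, and in the interferon list, 0 passed over the lines.

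**Figure D4:**
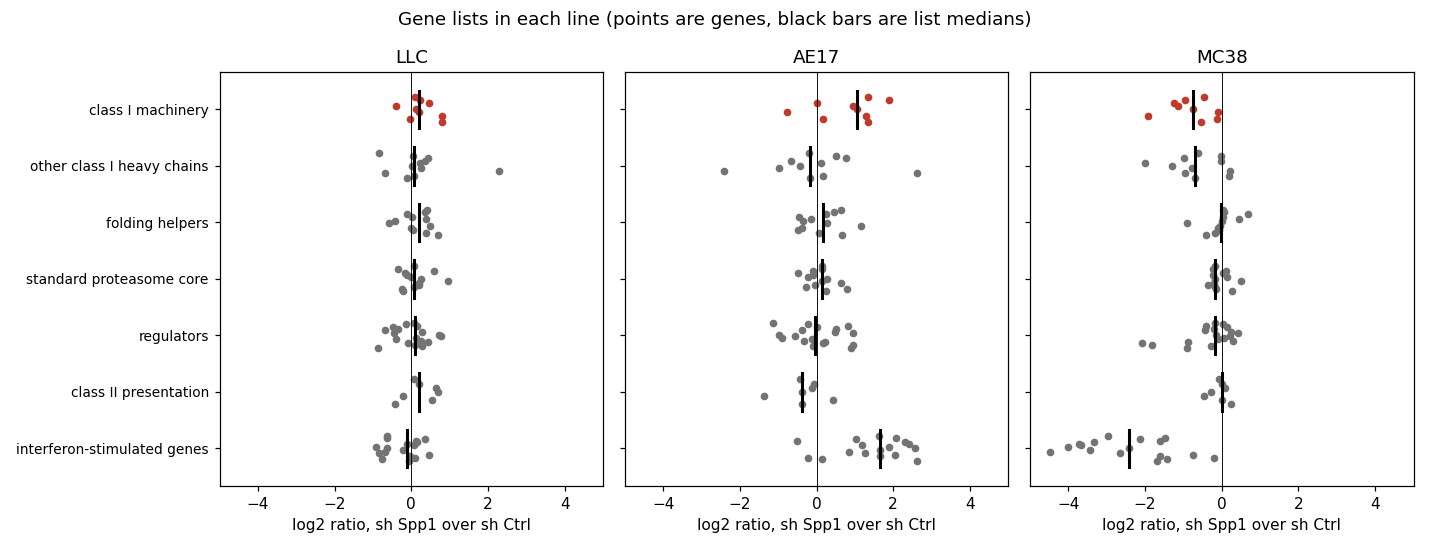
Log2 ratio of sh Spp1 over sh Ctrl (x axis) for the tested genes of each list (rows, 1 point per gene) in LLC, AE17 and MC38 (panels), with list medians as black bars. The medians of the class I machinery are 0.19, 1.05 and -0.75, and those of the interferon-stimulated genes -0.10, 1.65 and -2.43.

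The genes whose profile over the 6 arrays was most like the mean of the 9 were Isg15 at r = 0.993, Tor1aip1 at 0.988, Oasl1 at 0.986, Ifit1 at 0.985, Ptger4 at 0.984 and Znfx1 at 0.981, among genes with an SD of at least 0.5 over the arrays and a name that was not passed over. Names of the clone, predicted gene and small RNA type were passed over. The pattern used also dropped any gene whose name starts with A, B, C, D or E and a digit. Isg15, a ubiquitin-like modifier, had ratios of -0.04, 1.66 and -1.60 in LLC, AE17 and MC38, and Oasl1 -0.12, 3.29 and -2.30. On the LLC arrays Isg15 lay under the floor, at 4.13 with sh Spp1 and 4.17 with sh Ctrl. The mean of the 9 class I genes was -0.71 on the sh Spp1 array and -0.96 on the sh Ctrl array of LLC after each gene was centred, 0.58 against -0.23 in AE17, and in MC38 0.25 against 1.06. With 6 arrays from 3 lines such correlations are a description.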

How the data were processed

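RNA was labelled with biotin and hybridised to 1-colour arrays, per the labels' protocols. The deposited intensities are linear, from 1.28 to 15530, and the authors' processing is named only as RMA, per the submitters' processing notes, and GeneSpring GX 12.5 in the design text. Array medians differed, so intensities were log2 transformed and quantile normalized with limma 3.58.1 in R 4.3.3. Probe sets with 1 symbol (23521, against 1814 with several) were kept from the 30th percentile of mean log2 intensity, 4.49, upwards, and the brightest of the 17757 stood for its gene. The sh Spp1 contrast used lmFit and eBayes with the line as a block, Benjamini-Hochberg over 16797 genes; line contrasts came from the same fit. Within-line shares are of the 16561 genes in LLC, 16719 in AE17 and 16520 in MC38 that reached the floor on at least 1 array of the line. Pairs are arrays of the same line, whose deviations from the group means correlated at 0.521 for the LLC pair, 0.156 for the AE17 pair and 0.578 for the MC38 pair. The labels describe no separate cultures within a line, so p-values of the sh Spp1 contrast measure the spread of its ratios between lines. They do not measure spread between cultures, and eBayes draws each gene's spread towards a value pooled over all genes. The line contrasts took their error from that same spread, not from replicate cultures. Their error therefore includes the response of each line to the depletion.

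The members and lists were chosen with earlier results of these data known. All members, the list genes with at least the 2 highest and 2 lowest mean ratios, and the 6 most similar profiles under the stated SD and name conditions were named. Further list genes and the TGACG and ATTGG spacing were chosen after their values or sequences were seen. The fit was checked on simulated data in which a large change was shared by all lines. That check does not bear on ratios that differ between lines, as those of the members did. Background correction and slide could not be varied from this table. Figures used matplotlib 3.10.9 in Python 3.11.15.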

Additional observations from a re-analysis of the deposited data

Results flagged for a closer look

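Ratios of 1 array over 1 array had opposite signs in at least a pair of lines for all 9 tested genes, as for 67.8% of all genes, and the difference between lines was not tested. The AE17 ratio less the MC38 ratio, in log2 units, was 3.22 for Tap1, 2.84 for Psmb10, 2.10 for Psmb8, 1.90 for H2-K1, 1.82 for Nlrc5, 1.80 for Tapbp and 0.30 for B2m. For Psmb9 the widest opposite pair was LLC less MC38, at 1.70. For Tap2 it was AE17 less LLC, at -0.97.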

How the results depend on the processing

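Over the lines 0 of the 9 genes passed under each alternative run: other scalings and filters, the mean of probe sets, eBayes with a trend or robust, array weights, adjusted p under 0.1, each line left out and no replicate block, which drops the pairing of arrays by line. Their adjusted p ran from 0.160 to 0.999. In the values as deposited 1 gene, Psmb8, was lower by at least 1 log2 unit in LLC, beside 2516 of all genes. After median centring 3, H2-K1, Tap1 and B2m, were higher in LLC, beside 2693 of all genes. With that centring 1 was lower in MC38, beside 189 of all genes. At a threshold of 1.5-fold 2 were higher in LLC, 1 was lower in AE17 and 5 were lower in MC38. In LLC 3.32% of all genes had higher ratios than Tap1, at 1.74-fold, and 12.7% higher than Psmb9, at 1.38-fold. In MC38 2.91% had lower ratios than Tapbp, at 1.69-fold, and 6.02% lower than H2-K1, at 1.46-fold. The shares past 1.5-fold in LLC and MC38 lie between these values. In AE17 13.1% had lower ratios than Tap2, at 1.72-fold. At 2 log2 units 0 of the 9 were higher in AE17 and 0 lower in MC38. In AE17 3.57% of all genes had higher ratios than Psmb10, at 1.88, and in MC38 0.436% had lower ratios than Tap1, at -1.93. The shares of all genes past 2 log2 units are no larger than these. Relative to the median of all genes, the median of the 9 genes stayed between 0.16 and 0.35 in LLC, between 1.0 and 1.37 in AE17 and between -0.79 and -0.46 in MC38 over the scalings, filters and probe set rules. In MC38 minus LLC 1 gene was called higher as deposited, 2 with array weights and 3 with only these 2 lines in the fit, where 117, 260 and 572 of all genes were higher.

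Scaling moved the background as well. Genes higher and lower by at least 1 log2 unit numbered 285 and 291 in LLC, but 133 and 2516 as deposited and 2693 and 139 with centring. In AE17 they were 1667 and 1450, but 3291 and 742 with centring. In MC38 they were 144 and 274, but 377 higher as deposited and 851 with centring. The median ratio of all genes moved to -0.46 in LLC and -0.23 in AE17 as deposited. With centring the LLC, AE17 and MC38 medians were 0.33, 0.22 and 0.26, and 95%, 81.6% and 81.8% of genes past the threshold were higher, against 49.2%, 53.5% and 34.4% after quantile normalization and 5.01%, 45.8% and 59.3% as deposited. Calls over all genes between lines, 0 in each contrast reported, reached 260 higher and 214 lower in MC38 minus LLC (array weights), 10 higher and 93 lower in AE17 minus LLC (as deposited), and 229 higher (as deposited) and 67 lower (adjusted p under 0.1) in MC38 minus AE17, apart from 572 higher and 460 lower in the fit of MC38 and LLC alone. The number of arrays limits every value, and background correction and slide were not run as alternatives.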
